A study of Mus musculus with 360 samples.

Results

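The genes described here are 39 genes of DNA replication and S phase, chosen by symbol from the expression table of single C1498 cells, a mouse leukemia line. All 39 were among the 24781 genes of that table, and all of them had UMIs (molecules counted by their barcode) in the unheated cells. Heating was to 45 °C and lasted 10 min, control cells stayed at 37 °C, and single cells were picked under the microscope at -1, 1, 5, 10 or 15 h from the heating. The labels name no genetic change and no culture, so the cells share the line and differ by temperature and time alone, as far as the labels say. The 37 °C groups held 11, 11, 6, 6 and 11 cells in order of time, and the 45 °C groups of -1, 1, 10 and 15 h held 6, 13, 52 and 21, with all the remaining cells of the 360 in the 45 °C 5 h group. The 6 unheated groups were the 5 groups at 37 °C and the 45 °C group picked before heating, 51 cells in all, against 309 heated cells.

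Replication begins with licensing, in which Cdc6 and Cdt1 help to load the Mcm2 to Mcm7 helicase ring onto origins before S phase. In S phase Cdc45 and the GINS complex turn that ring into a working helicase, polymerases copy the strands with the sliding clamp PCNA, ribonucleotide reductase and thymidylate synthase supply deoxynucleotides, and chaperones such as Nasp bring histones to the new DNA. Many of these genes are known targets of E2F transcription factors, which act at the passage from G1 to S phase together with cyclin E.

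The promoters of the members differed in an exact E2F consensus match (3 T, 2 bases that are each C or G, then CGC). Of these promoters 6 are shown as examples, and they do not stand for all members. Mcm2, Nasp and Ccne1, which had no E2F match, are not among the 6. The search covered 250 bases before to 50 bases after the RefSeq start of each gene (GRCm38.p6), on both strands. The spellings were TTTCCCGC, TTTCGCGC, TTTGCCGC and TTTGGCGC with their reverse complements, beside CCAAT, and matches may overlap. Below, capitals mark matches of either motif in a stretch before the start that lies in no annotated exon. The first 3 are licensing genes: Cdt1 (chr8:122567865-122568014, plus strand), Mcm6 (chr1:128359706-128359855, minus strand) and Cdc6 (chr11:98908001-98908150, plus strand). The other 3 are nucleotide supply genes: Rrm2 (chr12:24708091-24708240, plus strand), Tyms (chr5:30073626-30073775, minus strand) and Tk1 (chr11:117826093-117826242, minus strand).
Cdt1: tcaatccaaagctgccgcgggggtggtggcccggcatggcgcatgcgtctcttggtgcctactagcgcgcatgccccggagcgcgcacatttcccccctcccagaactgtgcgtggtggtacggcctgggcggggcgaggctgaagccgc
Mcm6: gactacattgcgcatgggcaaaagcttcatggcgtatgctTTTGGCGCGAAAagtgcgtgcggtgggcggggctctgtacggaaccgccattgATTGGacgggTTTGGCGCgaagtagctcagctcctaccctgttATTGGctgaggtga
Cdc6: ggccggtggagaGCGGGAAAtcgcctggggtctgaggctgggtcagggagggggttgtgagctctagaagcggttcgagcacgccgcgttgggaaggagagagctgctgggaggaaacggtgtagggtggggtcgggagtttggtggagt
Rrm2: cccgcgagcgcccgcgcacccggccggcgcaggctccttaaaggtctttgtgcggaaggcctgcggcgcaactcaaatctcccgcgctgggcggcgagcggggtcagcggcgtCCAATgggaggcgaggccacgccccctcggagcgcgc
Tyms: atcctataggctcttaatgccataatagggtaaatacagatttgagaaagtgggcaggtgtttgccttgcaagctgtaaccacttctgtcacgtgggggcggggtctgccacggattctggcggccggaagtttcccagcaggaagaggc
Tk1: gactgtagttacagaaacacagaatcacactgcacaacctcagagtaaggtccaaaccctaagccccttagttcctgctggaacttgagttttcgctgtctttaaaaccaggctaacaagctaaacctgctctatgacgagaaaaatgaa
Cdt1 held neither motif here, and the E2F match of its window lies outside this stretch. Mcm6 held 3 E2F matches, 2 of which overlap on opposite strands in the first capital run, while Rrm2 held a CCAAT match alone and Tyms and Tk1 held neither.

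Of the 39 members, 33 had a promoter in the RefSeq table. Mcm4, Gins1, Gins2, Pole, Rfc2 and Ccne2 did not. An E2F match lay in 11 of the 33 windows (33.3%) and in 2.60% of the 27025 genes of the table. By role, it lay in 6 of 7 licensing genes (all but Mcm2) and 0 of 6 nucleotide supply genes. It lay in 1 of 5 genes of histone supply and chromatin (Uhrf1), and in 0 of the 2 G1/S regulators that had a window. The other E2F matches lay in Pola1, Pold1, Rfc3 and Lig1. CCAAT, at 41.1% of all genes, lay in 57.6% of the members' windows. A match is a description of letters and says nothing about binding or about the ratios, and looser spellings were not searched.

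The cells carried the markers of leukocytes (5 of 5 listed genes, 2820 CPM summed in unheated cells), while all 9 listed myeloid genes were at 0 in unheated cells, and of 8 listed T cell genes Cd3e and Cd3g were at 199.2 and 230 CPM, Lck, Cd3d, Cd2 and Cd247 at 5.75, 4.71, 2.09 and 1.05 CPM, and Cd4 and Cd8a at 0. CPM is the share of a group's UMIs that fell on a gene, scaled to 1000000. Groups summed to between 173274 UMIs (37 °C 10 h) and 6809101 UMIs (45 °C 5 h), so the 37 °C values set the width of most intervals. In 17 heated cells (7, 7 and 3 of those at 5, 10 and 15 h) and in 0 unheated cells, the ribosomal RNA precursor Rn45s and polymerase III RNAs took over 30% of the UMIs. Leaving those cells out turned the direction of no summed ratio of a role at 5, 10 or 15 h.

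Each group counted as 1 sample, so no test was made between temperatures. Ratios are log2 of 45 °C over 37 °C CPM at the same time with 0.5 UMI added, and brackets give the exact 95% interval, which covers counting error only. A ratio was called past 2-fold. Summed over all 39 members, the levels were 6702 against 5479 CPM (45 against 37 °C) at -1 h, 6300 against 4913 at 1 h, 4926 against 6231 at 5 h, 5989 against 6723 at 10 h and 5334 against 4819 at 15 h. The unheated groups alone ran from 4819 to 6723 CPM, and all 4 heated sums lay inside that range.

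The members' median ratio was 0.25 before heating, when neither arm had been heated and all measured genes had a median of 0.01. It was 0.34 at 1 h (all genes -0.14), -0.29 at 5 h (all genes -0.23), -0.08 at 10 h (all genes 0.00) and 0.19 at 15 h (all genes -0.02). At 5 and 10 h the members' median lay close to that of all genes. Members ran from Ccne1 (-1.84) to Cdt1 (0.60) at 5 h and from Tk1 (-2.03) to Rfc3 (1.42) at 10 h. At 5 h, 5 of 39 members were at least 2-fold lower (Nasp, Rrm2, Prim1, Tyms and Ccne1), against 15.2% of all measured genes, and 0 were 2-fold higher, against 6.23%. At 10 h, 7 of 39 were 2-fold lower (Tk1, Tyms, Rrm2, Ccne1, Gins2, Pola1 and E2f1; 7.22% of all genes) and 2 were 2-fold higher (Rfc3 and Cdc6; 11.9%). At 15 h 1 of 38 was 2-fold higher (Cdc6; 4% of all genes) and 0 were lower (2.17%). At 1 h 4 of 39 were 2-fold higher (Samhd1, Cdc45, Gins1 and Gins2; 1.44%) and 0 lower (6.3%), and at -1 h 1 of 38 was higher (Prim1; 2.58%) and 0 lower (4.52%). Single cells could move these counts: 3 higher at -1 h without 45 °C cell 6, 2 higher at 1 h without 45 °C cell 9, 1 higher at 5 h without 37 °C cell 4, 1 higher at 10 h without 45 °C cell 6, and at 15 h 2 higher without 37 °C cell 4 or 3 lower without 37 °C cell 9.

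**Figure D1:**
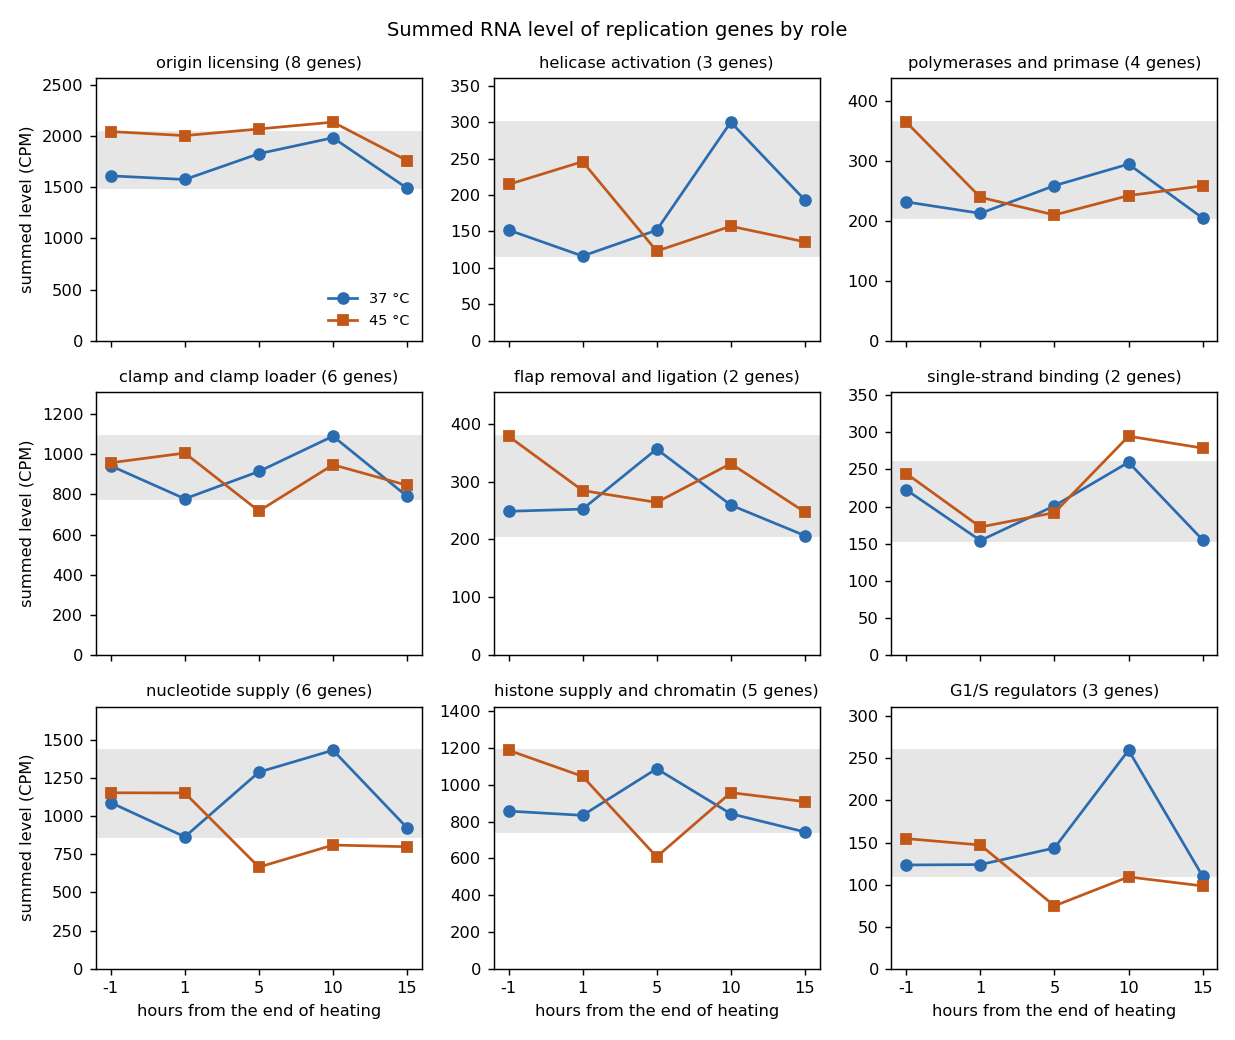
Summed level in CPM of the members of each role (vertical axes, from 0) against hours from the heating, at 37 °C (circles) and 45 °C (squares); the gray band spans the 6 unheated groups, and no error bar is drawn because each group is 1 sample. At 5 h origin licensing at 45 °C (2071 CPM) lies at the top of its band, while nucleotide supply (666 CPM), histone supply and chromatin (608 CPM) and G1/S regulators (74.8 CPM) lie under theirs.

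Origin licensing RNA stood at or above the control after heating. In heated cells the 8 genes summed to 2006, 2071, 2138 and 1761 CPM in order of time, against 1577, 1830, 1985 and 1492 at 37 °C. The ratio of the sums was 0.35 (0.20 to 0.50), 0.18 (0.04 to 0.32), 0.11 (-0.06 to 0.28) and 0.24 (0.10 to 0.38). The heated sums at 5 and 10 h lay above all 6 unheated groups, of which the highest was the 45 °C group before heating at 2046 CPM. That arm was already higher than 37 °C before heating (0.34, 0.17 to 0.52), and the ratios at 5, 10 and 15 h were smaller than this one. At 5 h, 7 of the 8 genes stood higher than at 37 °C and Mcm3 was lower (-0.27, -0.60 to 0.11). At 15 h all 8 stood higher, from Mcm6 (0.01) to Cdc6 (1.27).

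Cdt1, the loading factor that is normally destroyed once S phase begins, had the highest ratio among licensing genes at 5 h. Its levels at 37 °C were 149.8, 181.96, 131.3, 150.1 and 123.6 CPM in order of time, and at 45 °C 129.7, 186.2, 202.7, 288 and 134.2 CPM. Over cells, the lowest, median and highest values were 0, 178.5 and 859.5 CPM at 45 °C 5 h, 0, 256 and 980.5 at 45 °C 10 h, and 0, 124.6 and 516 in the 51 unheated cells. Single cells of heated and unheated groups overlapped widely, and the heated cells held the highest values. The 45 °C 5 h group had far more cells, and the 45 °C 10 h cells were shallower (median 18741 UMIs). The highest values are therefore not compared on equal terms. The ratio was 0.60 (0.12 to 1.18) at 5 h and 0.91 (0.36 to 1.58) at 10 h. The group level lay above all 6 unheated groups at 1, 5 and 10 h. In cells thinned to 5000 UMIs each the ratios were 2.19 and 2.54, without an interval. Thinning leaves 30000 UMIs in the whole 37 °C 5 h group, so the size of these 2 values rests on few control UMIs of Cdt1.

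Mcm6, a subunit of the helicase ring, was at 401 CPM at 5 h and 399 at 10 h in heated cells, above the unheated groups (260 to 364 CPM). Its lowest, median and highest cells were at 0, 387 and 1285 CPM at 45 °C 5 h and at 0, 317 and 705 CPM in unheated cells. Against 37 °C of the same time its ratios were small, at 0.15 (-0.15 to 0.48) and 0.15 (-0.23 to 0.57), and both intervals hold 0. Mcm4, another subunit, was likewise above the unheated range at 1, 5 and 10 h (176.97, 207.1 and 200.03 CPM, against 121.3 to 176.4), and its intervals against 37 °C held 0 at each of those times. Mcm2 was at 267 CPM at 5 h against 188.7 at 37 °C (0.48, 0.08 to 0.95), but the 45 °C arm before heating was at 284 CPM, and against it the ratio was -0.11. Cdc6, which recruits the ring with Cdt1, was at 70.8, 67.4 and 50.7 CPM at 5, 10 and 15 h, against 61.5, 28.9 and 20.2 at 37 °C. Its unheated groups ran from 20.2 to 61.5 CPM on 5 to 22 UMIs each, so the 15 h ratio of 1.27 (0.24 to 2.57) rests on 9 UMIs at 37 °C.

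The summed RNA of nucleotide supply stood lower from 5 h on, while that of licensing did not. Its 6 genes summed to 1151, 666, 810 and 799 CPM at 1, 5, 10 and 15 h in heated cells, against 864, 1288, 1431 and 923 at 37 °C. The ratio of the sums was 0.41 (0.21 to 0.62) at 1 h, -0.95 (-1.12 to -0.78) at 5 h, -0.82 (-1.03 to -0.61) at 10 h and -0.21 (-0.40 to -0.02) at 15 h. Without the cells of over 30% Rn45s and polymerase III RNAs the 15 h ratio was -0.17 (-0.36 to 0.02). Values that were not whole numbers held 9.31% of the Dut UMIs and 25% of the Tyms UMIs over all cells. The Dut ratio at 5 h depended on them (below), and no summed ratio without them is given. From 5 h on the heated sums lay under all 6 unheated groups, which ran from 864 to 1431 CPM. At 5 h 0 of 6 stood higher, at 10 h only Samhd1 did (0.27, -0.35 to 1.01), and at 15 h Rrm1 (0.60) and Samhd1 (0.14) did. Samhd1, whose product degrades deoxynucleotides, was at 1 h the highest member of all 39 (153.99 against 68.2 CPM, 1.16, 0.51 to 1.88, and 0.29 in thinned cells).

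Rrm2, the S phase subunit of ribonucleotide reductase (chr12:24708241-24714146, plus strand), was at 273, 225, 353, 392 and 208.9 CPM at 37 °C in order of time, and at 274.5, 264, 101.04, 179.6 and 135.7 CPM at 45 °C. Over cells, the lowest, median and highest values were 0, 84.7 and 546 CPM at 45 °C 5 h, 123.3, 423 and 581 at 37 °C 5 h, and 0, 259 and 878 in all unheated cells. Heated and unheated cells overlapped, but the heated median at 5 h lay under the lowest of the 6 control cells of that time. The ratio was -1.81 (-2.13 to -1.46) at 5 h, -1.13 (-1.54 to -0.70) at 10 h and -0.62 (-1.06 to -0.19) at 15 h. With each cell thinned to 5000 UMIs, 36.9% of heated cells at 5 h had an Rrm2 UMI (30.6 to 43.7%, all but 1 cell deep enough), against 66.7% of unheated cells (52.1 to 79.2%, n = 51). Without thinning the shares were 87% and 98%. Rrm1, the large subunit that is known to vary less over the cell cycle, was at -0.61 (-1.02 to -0.14) at 5 h, -0.85 (-1.37 to -0.28) at 10 h and 0.60 (0.08 to 1.15) at 15 h, the last of which was -0.49 against the 45 °C group before heating.

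Tyms, thymidylate synthase (chr5:30058202-30073617, minus strand), was at 116.8, 68.2, 106.7, 126.97 and 71.9 CPM at 37 °C and at 84.8, 73.5, 53.8, 42.9 and 35.8 CPM at 45 °C. Its lowest, median and highest cells were at 0, 41 and 388 CPM at 45 °C 5 h, at 0, 7.81 and 387 at 45 °C 10 h, and at 0, 90.3 and 320 in unheated cells. The groups overlapped, and the heated medians were the lower ones. The ratio was -1.01 (-1.56 to -0.35) at 5 h, -1.58 (-2.34 to -0.75) at 10 h and -1.00 (-1.83 to -0.20) at 15 h. Of the Tyms UMIs, 25% lay in values that were not whole numbers, the largest share among the members.

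Tk1, thymidine kinase of the salvage route (chr11:117815526-117826092, minus strand), was at 125.6, 133.9, 131.3, 207.8 and 112.3 CPM at 37 °C and at 144.7, 110.3, 67.9, 51 and 65.6 CPM at 45 °C. Its lowest, median and highest cells were at 0, 53.9 and 517 CPM at 45 °C 5 h, at 0, 11.7 and 333 at 45 °C 10 h, and at 0, 126.4 and 350 in unheated cells. A UMI of Tk1 was present in 50% of heated cells at 10 h and in 96.1% of unheated cells, and after thinning to 5000 UMIs in 19.1% (9.15 to 33.3%, n = 47) and 58.8% (44.2 to 72.4%, n = 51). The ratio was -0.97 (-1.47 to -0.39) at 5 h, -2.03 (-2.67 to -1.37) at 10 h and -0.77 (-1.39 to -0.16) at 15 h. Tk1 shares exon bases with Afmid on the other strand, and without a stated use of strand their reads cannot be told apart.

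Dut, the dUTPase that keeps uracil out of DNA, was at 221.8 CPM at 5 h and 255 at 10 h in heated cells, under the unheated groups (258 to 402 CPM). Its lowest, median and highest cells were at 0, 201.04 and 631 CPM at 45 °C 5 h and at 0, 340 and 695 CPM in unheated cells, so the cells overlapped. The ratio of -0.87 (-1.15 to -0.55) at 5 h became -0.11 when values that were not whole numbers were left out. What the fractions stand for is not stated.

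**Figure D2:**
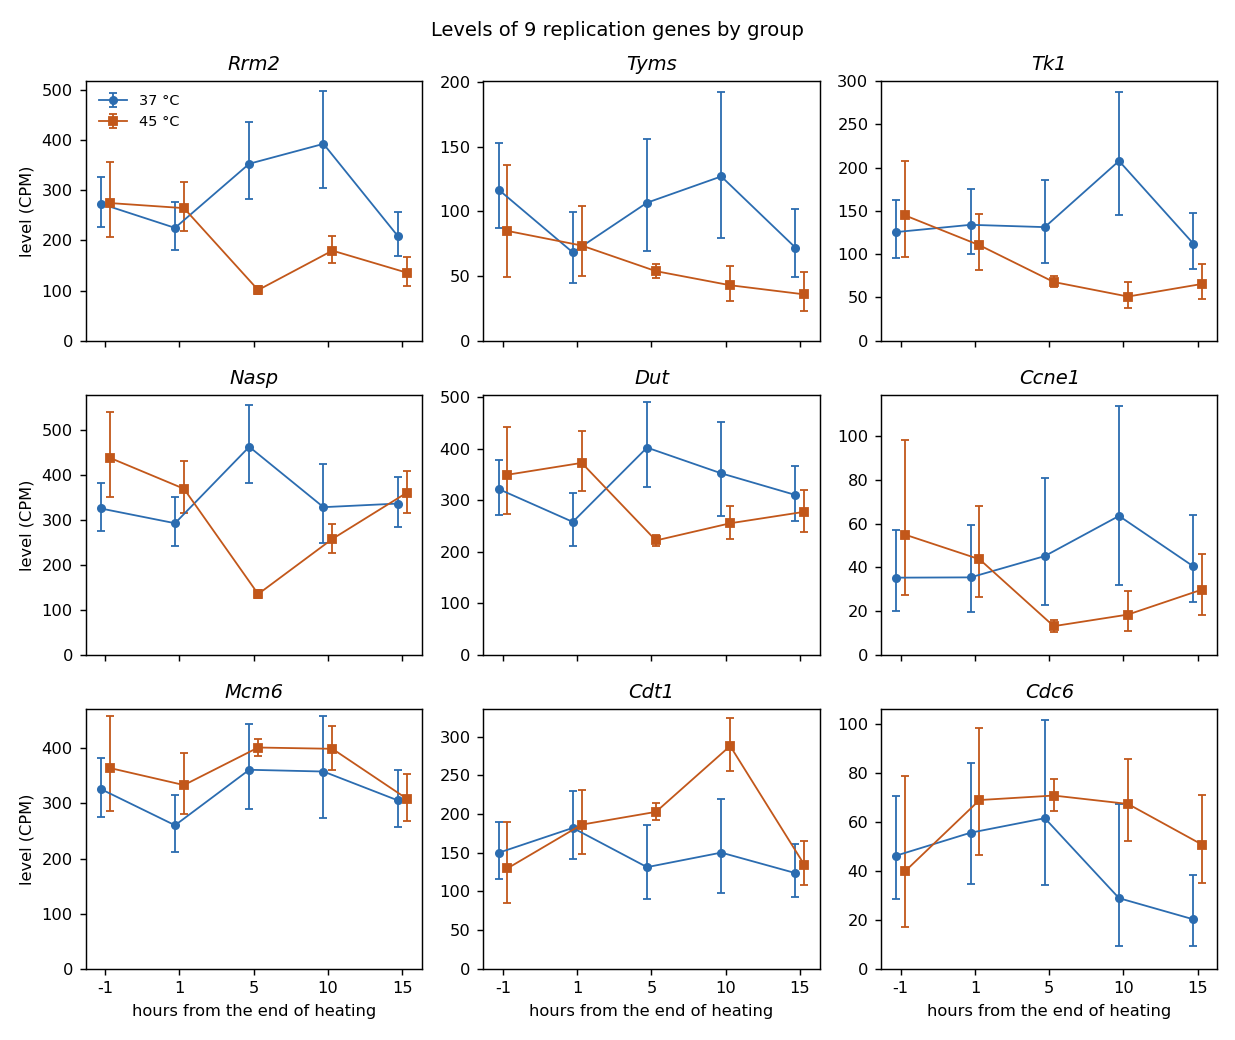
Level in CPM (vertical axes, from 0) of 9 members against hours from the heating, at 37 °C (circles) and 45 °C (squares), with exact 95% counting intervals as bars. Rrm2, Tyms, Tk1 and Ccne1 at 45 °C lie under every unheated point at 5, 10 and 15 h, Nasp (135.3 CPM) is low at 5 h and back at 361 CPM at 15 h, and Cdt1 at 45 °C reaches 288 CPM at 10 h. For Ccne1 at 15 h the margin is small.

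The summed level of histone supply and chromatin genes stood low at 5 h and back in range later. The 5 genes summed to 608 CPM at 5 h in heated cells, under all 6 unheated groups (744 to 1188 CPM), and to 957 and 908 CPM at 10 and 15 h, inside that range. Their ratios were -0.84 (-1.02 to -0.65), 0.18 (-0.07 to 0.45) and 0.29 (0.09 to 0.49) in that order. The 45 °C arm was already higher than 37 °C before heating (0.47, 0.23 to 0.71), and the ratios at 10 and 15 h were smaller than this one. At 5 h Nasp and Chaf1a lay below their unheated ranges and Slbp, Chaf1b and Uhrf1 inside theirs, and Nasp had the largest difference in CPM (135.3 against 464). At that time 0 of 5 stood higher than at 37 °C, with Nasp lowest and Uhrf1, the reader of hemimethylated DNA behind the fork, nearest the control (-0.10, -0.47 to 0.32).

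Nasp, the chaperone that holds the soluble store of histones H3 and H4 (chr4:116601052-116627941, minus strand), was at 326, 293, 464, 329 and 337 CPM at 37 °C and at 439, 370, 135.3, 258 and 361 CPM at 45 °C. Its lowest, median and highest cells were at 0, 115.3 and 782 CPM at 45 °C 5 h, at 107.7, 432 and 722 at 37 °C 5 h, and at 107.7, 310 and 815 in all unheated cells. Every unheated cell thus had Nasp UMIs, while 89.7% of the heated cells at 5 h did. The ratio was -1.78 (-2.06 to -1.48) at 5 h, -0.36 (-0.77 to 0.09) at 10 h and 0.10 (-0.20 to 0.40) at 15 h. Slbp, which binds the stem loop of histone messengers, was at 88.7 against 151.8 CPM at 5 h (-0.79, -1.25 to -0.25) and at 137.2 against 87.6 CPM at 15 h (0.64, 0.09 to 1.23), the latter being -0.14 against the 45 °C group before heating. Chaf1a, the large subunit of chromatin assembly factor 1, was at 101.9 against 159.98 CPM at 5 h (-0.67, -1.12 to -0.15) and at 204.1 against 115.4 CPM at 10 h (0.79, 0.16 to 1.56), though thinned cells gave -0.95 at 10 h. Of 10 measured histone genes outside the member list, 9 stood lower at 5 h (median -1.29), with Hist1h1b lowest (-3.45, -4.14 to -2.69). Hist1h2bc was the exception at 1.88 (-0.04 to 7.78), on 1 UMI at 37 °C. Hist1h1d, Hist1h2ae, Hist1h2ab and Hist1h3c had 3, 4, 5 and 4 UMIs at 37 °C. Reverse transcription was from an oligo-T primer, so histone messengers without a poly(A) tail would be missed.

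The G1/S regulators summed to 74.8, 109.2 and 98.4 CPM at 5, 10 and 15 h in heated cells, under all 6 unheated groups (110.1 to 260 CPM). At 10 h the margin was small. Without the cells of over 30% Rn45s and polymerase III RNAs the 10 h sum was 111.7 CPM, inside the unheated range. Ccne1, cyclin E1, the partner of Cdk2 at S phase entry, was at 35.2, 35.4, 45.1, 63.5 and 40.4 CPM at 37 °C and at 54.9, 43.7, 13.1, 18.4 and 29.8 CPM at 45 °C. Its lowest, median and highest cells were at 0, 0 and 160.3 CPM at 45 °C 5 h, at 0, 0 and 238 at 45 °C 10 h, and at 0, 36.9 and 164.6 in unheated cells. Most heated cells at those times had no Ccne1 UMI (27.4% and 17.3% had one), whereas 74.5% of unheated cells had one. After thinning, the shares were 9.01% (5.59 to 13.6%) at 5 h, 12.8% (4.83 to 25.7%) at 10 h and 17.6% (8.40 to 30.9%) in unheated cells, with intervals that overlap. The ratio was -1.84 (-2.70 to -0.73) at 5 h and -1.81 (-2.95 to -0.56) at 10 h, on 11 UMIs in each 37 °C group, and -0.44 (-1.43 to 0.56) at 15 h. E2f1, the transcription factor, was at 41.7 against 69.7 CPM at 5 h (-0.78, -1.45 to 0.06) and at 60.2 against 138.5 CPM at 10 h (-1.22, -1.91 to -0.45). Its 37 °C 10 h group stood apart from the other unheated groups, which ran from 56.2 to 69.7 CPM, and the heated level at 10 h lies within theirs. Ccne2, cyclin E2, was at -0.62 (-1.61 to 0.82) at 5 h, and 1.33 without cell 4 of 37 °C 5 h.

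Genes of helicase activation had a higher sum than at 37 °C at 1 h and lower ones afterwards, with an interval that holds 0 at 5 h. The 3 genes summed to 246 against 116.3 CPM at 1 h (1.07, 0.57 to 1.61), 123.1 against 151.8 at 5 h (-0.32, -0.78 to 0.21), 157.2 against 300.1 at 10 h (-0.94, -1.40 to -0.45) and 135.7 against 193.2 at 15 h (-0.51, -0.95 to -0.07). All 4 heated sums lay inside the unheated range of 116.3 to 300.1 CPM. Gins2, a GINS subunit, was at 117.2 against 55.6 CPM at 1 h (1.06, 0.33 to 1.87) and at 83.7 against 190.4 CPM at 10 h (-1.20, -1.79 to -0.56), but 0.027 at 10 h against all 37 °C cells together. Cdc45 was at 34.3 against 62.9 CPM at 15 h (-0.87, -1.74 to -0.03), and thinned cells gave 0.65. Cdc45 and Gins2 share exon bases with Ufd1 and Gse1 on the other strand.

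Polymerases, the clamp and its loader gave a mixed pattern. Prim1, which makes the RNA primer, was 2-fold lower at 5 h (35.2 against 114.9 CPM, -1.73, -2.27 to -1.08), yet its unheated groups ran from 30.8 to 114.9 CPM, and the heated level lay inside them. Before heating the 2 arms already differed at Prim1 by 1.75 (0.72 to 2.85). Pola1, the catalytic subunit of polymerase alpha, was at 26.5 against 69.3 CPM at 10 h (-1.42, -2.42 to -0.26), and -0.74 without cell 6 of 37 °C 10 h. Pcna, the clamp, was at 445, 356, 451, 577 and 380 CPM at 37 °C and at 484, 513, 301, 397 and 336 CPM at 45 °C. Its lowest, median and highest cells were at 0, 285 and 970 CPM at 45 °C 5 h and at 0, 435 and 881 CPM in unheated cells, which overlap. The Pcna ratio was 0.52 (0.21 to 0.84) at 1 h, -0.59 (-0.86 to -0.29) at 5 h, -0.55 (-0.86 to -0.21) at 10 h and -0.18 (-0.47 to 0.12) at 15 h.

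Rfc3, a subunit of the clamp loader, was at 161.2 against 57.7 CPM at 10 h (1.42, 0.57 to 2.57; 2.02 without cell 2 of 37 °C 10 h), above all unheated groups (57.7 to 99.8 CPM), and at 104.4 against 62.9 CPM at 15 h (0.72, 0.08 to 1.42). Rfc4 was at 124.5 CPM at 10 h and 101.4 at 15 h, also above its unheated range of 65.7 to 94.7 CPM. Rfc4 shares exon bases with Eif4a2 on the other strand, and the use of strand is not stated. The same limit holds for Mcm7, Pole, Rfc2, Rfc5, Fen1, Lig1, Slbp, Chaf1a and Ccne2, with other genes. Lig1, the ligase that joins Okazaki fragments, was at 170.7 against 271 CPM at 5 h (-0.68, -1.02 to -0.29) and inside its unheated range (121.3 to 271 CPM). Rpa1 and Rpa2, the proteins that cover single-stranded DNA, were at 168.5 against 94.4 CPM (0.83, 0.31 to 1.38) and 110.4 against 60.7 CPM (0.85, 0.21 to 1.56) at 15 h. Together they summed to 279 CPM at 15 h, above all unheated groups (154.2 to 260 CPM), but for Rpa2 the ratio was -0.14 against the 45 °C group before heating and -0.38 in thinned cells.

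**Figure D3:**
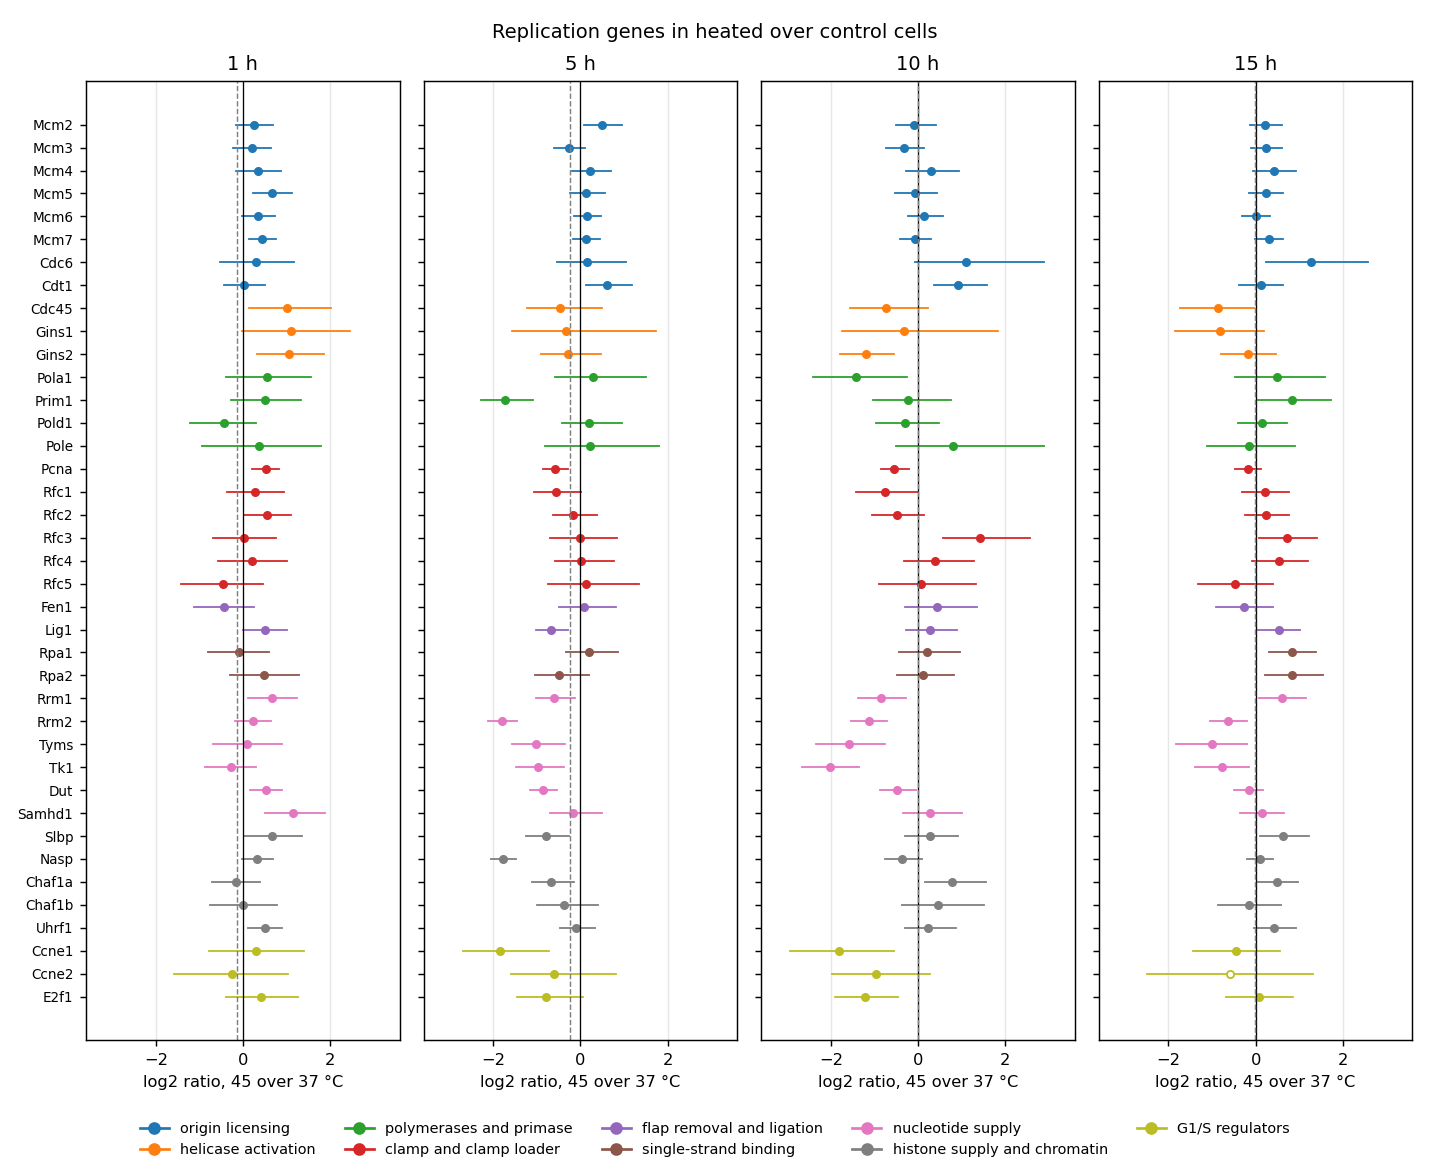
Log2 ratio of 45 over 37 °C CPM (horizontal axes) for the 39 members, one per line and colored by role, at 1, 5, 10 and 15 h; bars are exact 95% counting intervals, the dashed line is the median of all measured genes, and an open point had too few UMIs to count as measured. At 5 h the licensing genes lie near 0 or to the right, and the 6 nucleotide supply genes lie to the left.

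Each member was also set against the range of the 6 unheated groups, and the genes above that range differed from time to time. At 5 h, 4 of 39 members lay above that range (Mcm4, Mcm6, Cdc6 and Cdt1, all licensing genes; 6.4% of all genes lay above) and 10 lay below it (Gins1, Pcna, Rrm2, Tyms, Tk1, Dut, Nasp, Chaf1a, Ccne1 and E2f1; 17.1% of all genes). At 10 h, 11 lay above (the same 4 licensing genes with Rfc3, Rfc4, Rpa2, Samhd1, Slbp, Chaf1a and Chaf1b; 18.7% of all genes), and 7 lay below (Pola1, Rrm2, Tyms, Tk1, Dut, Nasp and Ccne1; 15.1%). At 15 h, 4 lay above, none of them a licensing gene (Rfc3, Rfc4, Rpa1 and Samhd1; 14.7%), and 8 below (Cdc45, Pcna, Fen1, Rrm2, Tyms, Tk1, Ccne1 and Ccne2; 12.3%). At 1 h, 8 lay above (8.19% of all genes), of which 5 were licensing genes and the others Gins1, Samhd1 and Uhrf1, and 4 below (Pold1, Fen1, Rpa1 and Tk1; 18%). Rrm2, Tyms, Tk1 and Ccne1 were below it at 5, 10 and 15 h alike, 4 of 39 members or 10.3%, against 3.74% of all genes, and 0 members were above it at all 3 times, against 1.8%. These counts use the same unheated groups at each time and are no independent repeats.

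Per cell, the summed level of the 39 members had its lowest, median and highest values at 1289, 5665 and 9202 CPM in unheated cells, 256, 5021 and 10382 at 45 °C 5 h, 300, 5460 and 11416 at 10 h, and 834, 5001 and 9795 at 15 h. The medians differed little. The SD over cells was 1785 CPM in unheated cells, 1533 at 45 °C 5 h, 2807 at 10 h and 2430 in the 15 h group, so the spread was wider at 10 and 15 h and not at 5 h. Of the 11 heated cells under the lowest unheated cell, 9 had over 30% of their UMIs in ribosomal RNA precursor and polymerase III RNAs.

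**Figure D4:**
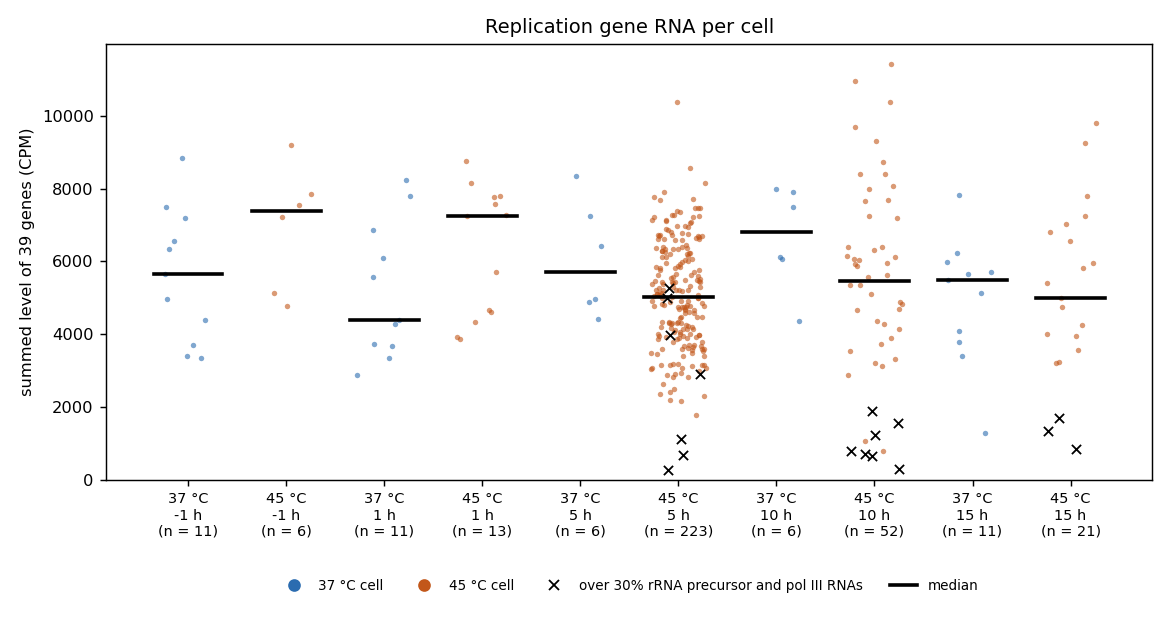
Summed level of the 39 members in CPM (vertical axis, from 0) in each cell (points) of the 10 groups, with the group median as a line; crosses are cells with over 30% of UMIs in Rn45s and polymerase III RNAs. The medians lie between 4400 CPM (37 °C 1 h) and 7385 CPM (45 °C before heating), and most cells under 1289 CPM are crosses.

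The balance of nucleotide supply over licensing was then taken in each cell as log2 of the summed UMIs, where both together had at least 10 UMIs. This measure was chosen after the group values had been seen, so it describes how the difference was spread over cells and does not support it. The lowest, median and highest cells were at -2.11, -0.63 and 0.35 among 50 unheated cells, at -1.49, -0.92 and 0.17 among 13 cells at 45 °C 1 h, at -3.34, -1.63 and -0.16 at 5 h (all but 4 cells), at -3.70, -1.40 and -0.53 among 42 cells at 10 h, and at -1.86, -1.15 and 0.00 among 18 cells at 15 h. The 45 °C group before heating had a median of -0.85. At 5 h, 96.3% of these cells (92.9 to 98.4%) lay under the unheated median, and 50 cells (22.8%) lay under the lowest unheated cell. The other cells lay inside the unheated range, so a shift cannot be read from each single cell. The interval counts cells of 1 sample, which are not replicates. At 10 h 40 of 42 cells lay under the unheated median, and at 15 h 14 of 18. In cells thinned to 5000 UMIs the median was -0.62 in unheated cells and -1.58, -1.45 and -1.12 in heated cells of 5, 10 and 15 h, and 89.7%, 77.8% and 81.3% of the latter lay under the unheated median.

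**Figure D5:**
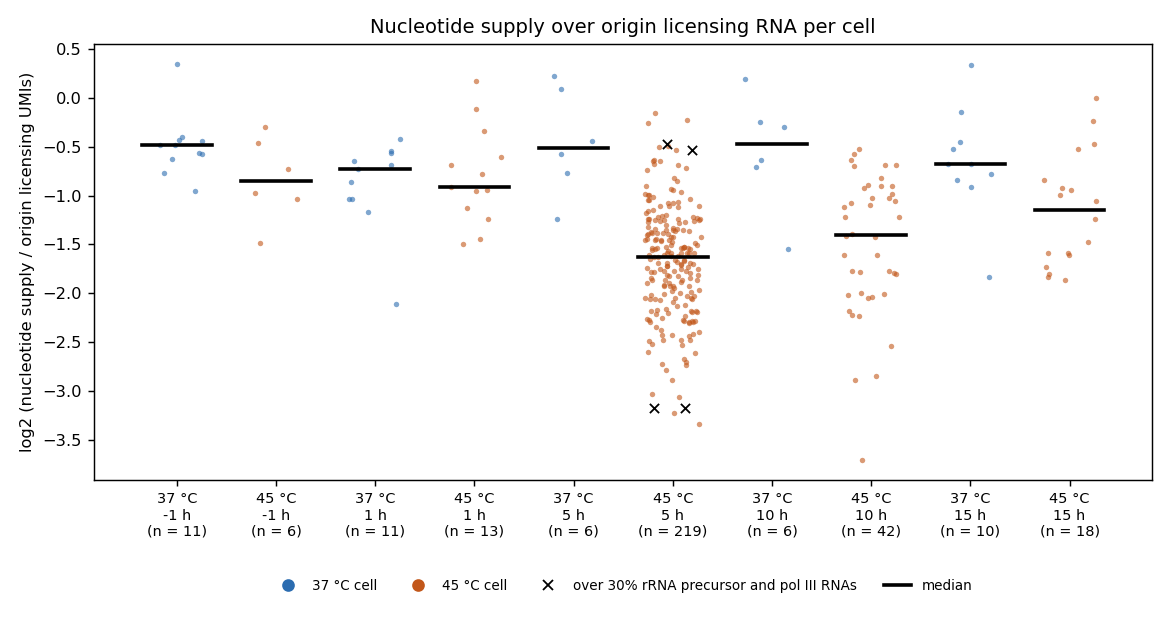
Log2 of nucleotide supply over origin licensing UMIs (vertical axis) in each cell (points) of the 10 groups with at least 10 such UMIs; lines are group medians and crosses are cells with over 30% of UMIs in Rn45s and polymerase III RNAs. The 45 °C 5 h median of -1.63 lies under all but 2 of the 50 unheated cells.

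Other replication genes, listed by function, had medians close to those of all genes at each time after heating. Of 64 such genes, 59 were measured at 5 h with a median of -0.29, against -0.23 for all genes, and 15 stood higher and 44 lower. None was 2-fold higher (6.23% of all genes) and 6 were 2-fold lower (15.2% of all genes). Recql4 stood highest (0.94, -1.00 to 6.84, on 1 UMI at 37 °C) and E2f3 lowest (-1.52, -2.13 to -0.79). Their medians at 1, 10 and 15 h were -0.07, -0.10 and 0.04. The 42 genes of G2 and mitosis had a median of -0.34 already before heating, when 31 of the 39 measured stood lower. Their medians were -0.38, -0.25, 0.05 and -0.34 at 1, 5, 10 and 15 h. At 5 h Aurka stood highest (1.76, 0.21 to 5.13, on 2 UMIs at 37 °C) and Mad2l1 lowest (-1.31, -1.74 to -0.82).

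Over single cells of 45 °C 5 h thinned to 5000 UMIs, each member's correlation with the sum of the other 38 was weak (Pearson's r from 0.005 to 0.33, median 0.17, all but 1 cell). The 51 unheated cells gave a median r of 0.20. These values are descriptions over cells of the same groups, and in counts this sparse a weak r is no finding.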

How the data were processed

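Each sample was 1 C1498 cell, and its label gave temperature and time. RNA was fragmented by heat, reverse transcribed from an oligo-T primer with a molecular barcode, extended by template switching and amplified, per the labels' protocols. The deposited table held estimated counts of UMIs per gene and cell, not scaled, with fractions in 5.30% of the values above 0. The listed tool was STAR and the listed genome build mm10, per the submitters' processing notes, with no role or settings given. Not given in the sources used here are the counting program, its annotation, its use of strand and any filter on cells.

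UMIs were summed over the cells of a group, rounded, and divided by the group total (CPM). No label names a culture, so each group was 1 sample: no p-value or standard error was computed, and 95% intervals (exact conditional binomial for ratios, Clopper-Pearson for shares) cover counting error only. PCR and picking add error that they do not cover. A gene was measured with at least 20 UMIs in both groups together and 10 CPM in 1 of them. The design assumed whole counts, and sums of estimated counts were used in their place. For shares and per-cell values, cells were thinned to 5000 UMIs, which left out 1 cell at 45 °C 5 h and 5 at 45 °C 10 h.

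The members and all lists (roles, other replication genes, G2 and mitosis, histones, chaperones, cell type markers) were chosen with earlier results of these data known. In each comparison up to 5 members per direction were named by rule: at least 50 CPM in the higher group, an interval without 0, ranked by the bound nearest 0. Other members are given by role, and genes outside the unheated range or singled out beyond this were named after their values were seen. The filter at 30% Rn45s and polymerase III RNAs was also chosen after the values were seen. Of 18 chaperones, the measured ones had median log2 ratios of 0.21, 0.93, 0.68 and 0.26 at 1, 5, 10 and 15 h. Histones had -0.17, -1.29, -1.18 and -1.03. In unheated cells 4 of 4 B cell, 4 of 4 fibroblast, 5 of 6 NK cell, 3 of 4 erythroid and 2 of 8 T cell markers were at 0.

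Gene positions are GENCODE vM21 (mm10) and promoters are RefSeq (GRCm38.p6). The ratio script was tested on simulated data. Python 3.11.15, numpy 2.4.6, scipy 1.17.1 and pandas 2.3.3 were used.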

Additional observations from a re-analysis of the deposited data

Results flagged for a closer look

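Of 30 checks of the highest and lowest cell in groups of 6, 1 cell stood far from the others: cell 4 of 37 °C 10 h, with 549 CPM summed over the G1/S regulators Ccne1, Ccne2 and E2f1. Chance alone marks about 1 in 20 such groups. The 37 °C 10 h group is the reference for the 10 h ratios of these 3 genes.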

How the results depend on the processing

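Of 301 values of the 34 named ratios under 9 settings that can move a ratio, 260 stayed inside the interval of the reported ratio, 33 left it with the same sign and 8 changed sign. Thinning to 5000 UMIs a cell took 20 of the 34 outside, 3 of them with the other sign, and it leaves 30000 UMIs in the 37 °C 5 h group. The 8 were Mcm2 at 5 h (-0.11), Rpa2 (-0.14), Slbp (-0.14) and Rrm1 (-0.49) at 15 h against the 45 °C group before heating, Gins2 at 10 h (0.027) against all 37 °C cells, and Chaf1a at 10 h (-0.95), Rpa2 (-0.38) and Cdc45 (0.65) at 15 h in thinned cells. The named ratios of Rrm2, Tyms, Tk1, Nasp and Ccne1 kept their sign under every setting run, though not their size (Tyms at 10 h was -3.18 and Tk1 at 15 h -1.55 in thinned cells). The cause of each change was not tested.

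Counts of members past 2-fold moved with the reference, the UMI minimum and thinning. Higher members at -1 h numbered 0 against all 37 °C cells, 2 in thinned cells and 0 with at least 100 UMIs. At 1 h they numbered 0 against all 37 °C cells, 0 against 45 °C before heating (with 1 lower), 2 as means of CPM per cell, 2 thinned and 0 with at least 100 UMIs. At 5 h, 4 were higher in thinned cells. At 10 h, 3 were lower against all 37 °C cells and 2 with at least 100 UMIs, and 1 was higher against 45 °C before heating, as means per cell, with at least 100 UMIs and with 1 UMI added. At 15 h, 0 were higher against all 37 °C cells, against 45 °C before heating and with at least 100 UMIs. Lower ones numbered 3 against all 37 °C cells, 6 against 45 °C before heating and 2 as means per cell. Shares of all measured genes 2-fold higher against all 37 °C cells were 4.74%, 1.49% and 3.95% at -1, 1 and 15 h. Against 45 °C before heating they were 2.65%, 10.7% and 8.03% at 1, 10 and 15 h. Shares 2-fold lower against all 37 °C cells were 5.56% and 2.87% at 10 and 15 h. Against 45 °C before heating they were 5.48% and 4.85% at 1 and 15 h. For the other settings no share of all genes is given. The 15 h median was -0.31 against 45 °C before heating. The 1 h median was -0.12 against that group, the 5 h median 0.10 in thinned cells, and the 10 h median 0.17 against all 37 °C cells, 0.18 thinned and 0.12 with at least 100 UMIs.

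Leaving out 1 cell at a time gave medians of 0.23 to 0.39 (-1 h), 0.25 to 0.46 (1 h), -0.40 to -0.16 (5 h), -0.23 to -0.06 (10 h) and 0.11 to 0.24 (15 h). Higher members ranged over 1 to 3, 2 to 4, 0 to 1, 1 to 3 and 1 to 2, and lower ones over 0 to 0, 0 to 0, 4 to 6, 5 to 9 and 0 to 3. No paired analysis was possible because the numbers in the labels only count cells and each group is 1 sample with no test. Depth limits the 37 °C groups at 5 and 10 h most, where 6 cells each set the width of the intervals.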
